A study of Mus musculus with 12 samples.

Results

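The E2F transcription factors E2f1 to E2f8 and the E cyclins Ccne1 and Ccne2 were followed in mouse embryonic stem cells as the cells passed from serum and LIF into 2i, with and without an inhibitor of the nuclease MRE11. These 10 genes were chosen by name from the 56691 mouse genes counted. The choice was made knowing that E2f1 was higher at both inhibitor doses than in 2i alone. For this reason the differences of these genes between either dose and 2i alone are given as a description, with no p-value. The cells were R1 embryonic stem cells, a male line of 129/Sv background, grown on gelatin. The day 0 cells (called primed in the labels) grew in serum with LIF. The other groups spent 6 days in 2i, a medium that blocks the kinases MEK and GSK3, either alone or with 25 or 50 µM of the MRE11 inhibitor. The sources used here do not name that compound. Each of the 4 groups held 3 libraries. All 12 libraries came from a single cell line, no group stayed in serum to day 6, and no group received the inhibitor without 2i, so 2i and 6 days of culture cannot be told apart.

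E2F proteins bind DNA with a DP partner, or as pairs of their own in the case of the atypical members, at the promoters of genes that a cell needs to copy its DNA. E2F1, E2F2 and E2F3 are known as activators, and E2F4 and E2F5 as repressors that act with the pocket proteins p107 and p130. E2F6 represses without pocket proteins, as part of a Polycomb complex, and E2F7 and E2F8 are repressors that are themselves made from E2F target genes. Cyclin E1 and cyclin E2 activate the kinase CDK2, which phosphorylates pocket proteins and releases E2F, and their genes are E2F targets too. Mouse embryonic stem cells are known for a short G1 phase and for cyclin E-CDK2 activity through much of the cycle.

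Several of these genes carry the E2F recognition letters in their own promoters. Sequences are shown for E2f2, E2f7, E2f8 and Ccne1, whose transcripts changed between the groups, and for E2f3. The transcript of E2f3 was called only at 50 µM against primed cells. Of the 10 genes, 7 had a promoter window in RefSeq (GRCm38.p6), from 250 bases before to 50 bases after an annotated start. The search used the letters TTTCCCGC, TTTGGCGC, TTTCGCGC and TTTGCCGC on both strands, and then the same letters without the first T, so that every longer match is also a shorter one. The shorter letters were found in E2f2, E2f3, E2f7 and E2f8, in 10.9% of all genes with a window and in 9.57% of all 32851 windows. The longer letters were found in E2f2, E2f3 and E2f7, in 2.6% of all genes with a window and in 2.26% of all windows. In the sequences that follow, read 5′ to 3′ on the strand of the gene, capitals mark matches to the shorter letters or to their reverse complement. The first 4 end at the base before the RefSeq start.
E2f8, chr7:48881597-48881846, minus strand: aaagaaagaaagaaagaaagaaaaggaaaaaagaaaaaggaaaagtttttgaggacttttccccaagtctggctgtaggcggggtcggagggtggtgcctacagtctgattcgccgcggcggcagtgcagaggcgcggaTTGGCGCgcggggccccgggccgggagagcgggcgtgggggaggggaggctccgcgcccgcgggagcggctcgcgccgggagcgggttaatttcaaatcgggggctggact
E2f7, chr10:110745189-110745438, plus strand: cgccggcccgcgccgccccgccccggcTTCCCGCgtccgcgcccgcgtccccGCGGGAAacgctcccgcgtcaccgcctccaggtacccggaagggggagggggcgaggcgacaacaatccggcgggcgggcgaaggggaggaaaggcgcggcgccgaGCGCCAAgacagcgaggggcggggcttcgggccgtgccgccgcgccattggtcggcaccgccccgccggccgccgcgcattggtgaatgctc
E2f3, chr13:29986064-29986313, minus strand: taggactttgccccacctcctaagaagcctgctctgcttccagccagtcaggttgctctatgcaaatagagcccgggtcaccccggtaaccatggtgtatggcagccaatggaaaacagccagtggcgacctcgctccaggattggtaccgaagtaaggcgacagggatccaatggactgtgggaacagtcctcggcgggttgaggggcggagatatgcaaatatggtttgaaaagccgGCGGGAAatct
Ccne1, chr7:38107491-38107740, minus strand: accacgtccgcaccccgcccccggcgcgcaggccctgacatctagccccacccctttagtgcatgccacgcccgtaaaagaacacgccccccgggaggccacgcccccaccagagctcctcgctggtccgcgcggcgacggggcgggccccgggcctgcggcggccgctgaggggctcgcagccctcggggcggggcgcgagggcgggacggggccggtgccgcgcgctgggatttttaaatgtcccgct
E2f2, chr4:136172303-136172323, plus strand: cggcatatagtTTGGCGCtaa
E2f7 holds 3 matches, at 223, 198 and 92 bases before its start. E2f8 holds 1, at 111 bases before its start. In E2f3 the letters lie 11 bases before and 18 bases after the start of its longer form. The match in E2f2 lies 40 bases after the RefSeq start but before the outermost GENCODE start, which is 120 bases further along. The Ccne1 window has no match, which says only that these letters are not in this stretch. The window of E2f1 belongs to a RefSeq start 466 bases inside the GENCODE gene and so does not cover its main promoter. These matches are descriptions of sequence, and binding was not measured.

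Library totals lay between 5894561 and 7060126 counts, and 13230 genes passed the low-count filter, all 10 of these genes among them with 54 to 1699 counts per library. The summed level of 10 markers of pluripotent stem cells was 4317 to 5023 CPM (counts per 1000000, scaled by TMM) in primed cells, 4792 to 5031 in 2i, 4841 to 5013 at 25 µM and 4579 to 5242 at 50 µM. Single markers moved in both directions in 2i against primed cells. Nanog (means of 550 CPM primed and 1183 CPM in 2i), Esrrb (0.62 ± 0.09) and Fgf4 (0.38 ± 0.09) rose. Utf1 (−2.33 ± 0.16) and Tdgf1 (−0.86 ± 0.10) fell, and the other 5 were not called. At 50 µM against 2i, Utf1 (0.71 ± 0.16) and Tdgf1 (0.40 ± 0.10) rose and the other 8 were not called. The Tdgf1 call was lost without 50 µM replicate 3 (edgeR adjusted p = 0.0674). At 25 µM none was called. Pou5f1 had group means of only 6.53 to 8.41 CPM, and pseudogene copies may take some of its reads. The summed level of 13 markers of fibroblasts and of differentiated lineages was 184 to 406 CPM in primed cells and 192 to 234 CPM in the six-day groups, where Col3a1 or T had no counts. Most of that sum was Vim, with group means of 159 to 216 CPM, and 8 of the 13 passed the low-count filter. At 50 µM against 2i, Col1a1 (−3.21 ± 0.52) and Thy1 (−4.05 ± 0.43) fell, the neural marker Sox1 rose (1.49 ± 0.42) and the other 5 were not called. Group means in 2i and at 50 µM were low, at 7.15 and 0.762 CPM (Col1a1), 4.77 and 0.275 (Thy1) and 1.43 and 4.09 (Sox1). The Sox1 call was lost without 2i replicate 1 (edgeR adjusted p = 0.0776), 2i replicate 3 (0.0562) or 50 µM replicate 1 (0.11). At 25 µM 1 of the 8 fell, Col1a1, a call lost without any single library of the 2 groups. The part of these markers in the results was not tested. In bulk RNA, fewer cells in a phase of the cycle and less RNA per cell cannot be told apart. Levels are given as CPM, and differences as log2 fold changes ± SE from edgeR's quasi-likelihood fit. A gene counts as called where its Benjamini-Hochberg adjusted p over all 13230 genes was below 0.05. Nothing in the labels ties replicates to separate cultures, and the p-values therefore rest on a spread that may be only technical.

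**Figure D1:**
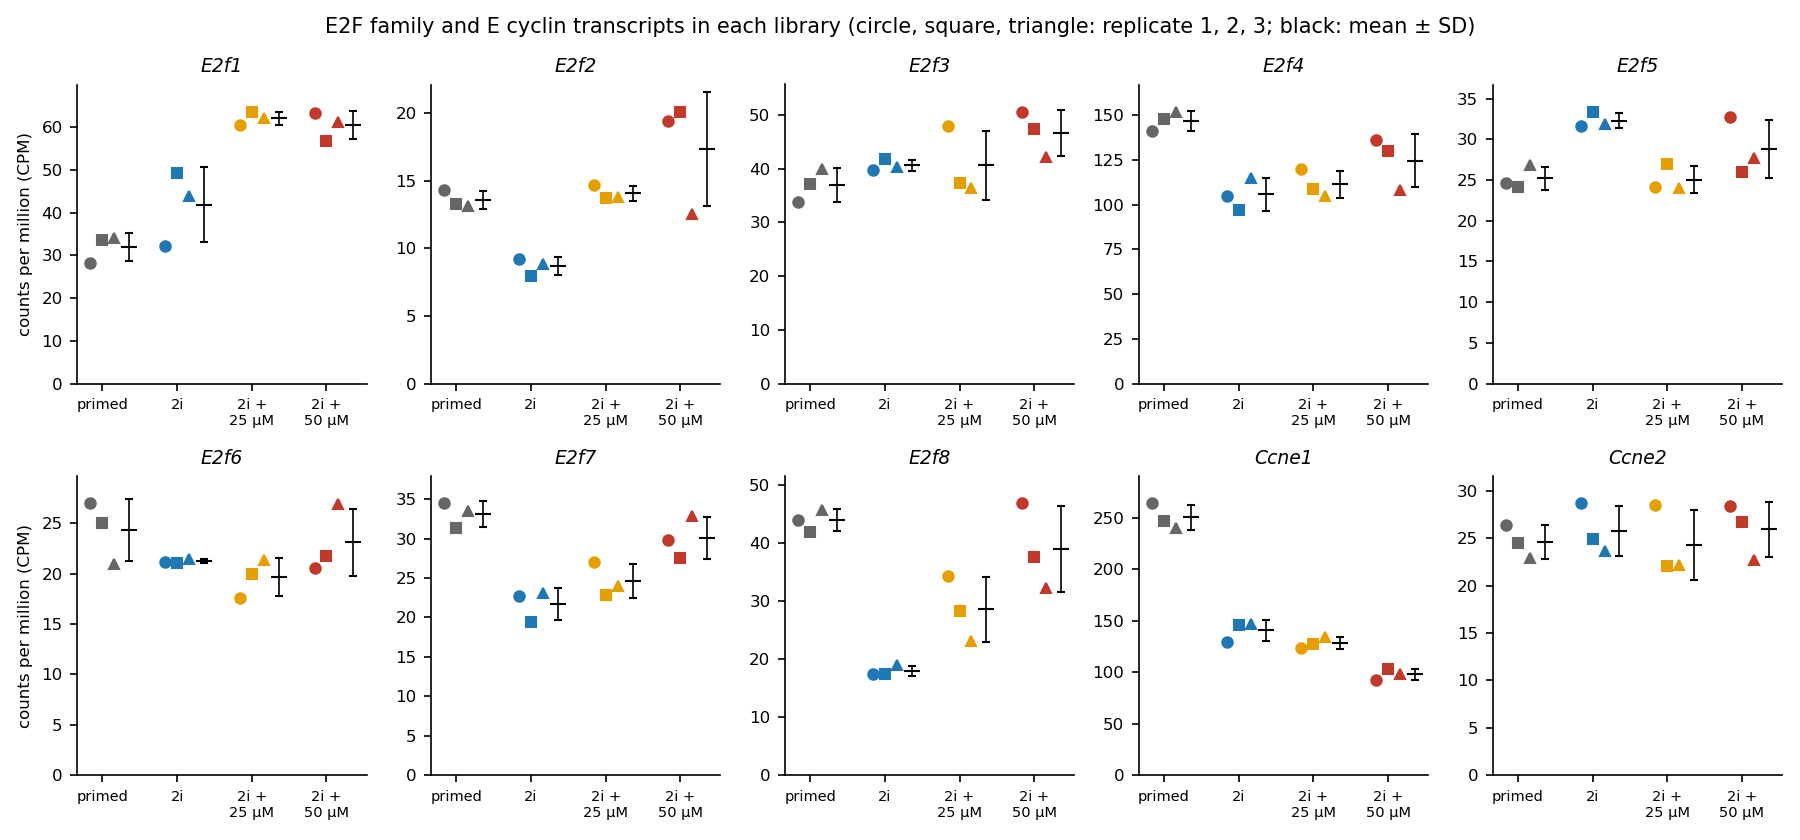
Level of each gene in CPM (counts per 1000000, vertical axis from 0) in the 12 libraries, by group (horizontal axis), with the mean and SD (n = 3) in black. E2f8, E2f7 and E2f2 dip in 2i and stand higher with the inhibitor, whereas Ccne1 steps down from 240 to 264 CPM in primed cells to 92.2 to 103 CPM at 50 µM.

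In 2i against primed cells, which asks what the passage into 2i did to these genes, the atypical repressors E2f7 and E2f8, the activator E2f2, the repressor E2f4 and the cyclin gene Ccne1 fell, and E2f1 and E2f5 rose. The largest of these changes was that of E2f8, to 0.41 of its primed level. E2f3, E2f6 and Ccne2 did not pass the test. The 10 genes thus held 2 rises and 5 falls, against a background of 40.4% of all genes called in this comparison (20% higher and 20.4% lower in 2i). The median log2 fold change was −0.34 over the 10 genes and −0.01 over all genes tested. In the same comparison 5 of the 8 measured markers of other cell types fell (62.5%, beside 20.4% of all genes) and 0 rose by edgeR, DESeq2 or limma voom, or at an unadjusted edgeR p below 0.05. The falls were Col1a1 (−1.83), Col1a2 (−2.87), Acta2 (−3.40), Thy1 (−0.71) and Pax6 (−2.85). In every group, counts over all genes differed more between replicate 1 and the other libraries than between those others. Primed replicate 1 stood apart in these markers. It had Acta2 at 101 CPM beside 25 and 26.2 in the other primed libraries, and Col1a1 at 41.3 CPM beside 16.8 and 18.2. Without it the falls of E2f2, E2f4, E2f7, E2f8 and Ccne1 were still called and the rises of E2f1 and E2f5 were not, and the markers' part in the changes of the 10 genes was not tested.

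E2f1 (ENSMUSG00000027490, chromosome 2, 154559407 to 154569892, minus strand) encodes the best-studied activator of the family. Its level was 28.1, 33.5 and 34 CPM in the 3 primed libraries and 32.2, 49.3 and 43.9 CPM in 2i. The lowest 2i library, replicate 1, lay among the primed libraries, so the groups overlapped. The log2 fold change was 0.39 ± 0.13 (edgeR adjusted p = 0.0192). The call was lost without primed replicate 1 (edgeR adjusted p = 0.0877), 2i replicate 2 (0.141) or 2i replicate 3 (0.0645).

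E2f2 (ENSMUSG00000018983, chromosome 4, 136172394 to 136196057, plus strand), an activator, moved the other way. It was at 14.3, 13.3 and 13.1 CPM in primed cells and at 9.21, 7.95 and 8.87 CPM in 2i, with every 2i library below every primed one. The log2 fold change was −0.64 ± 0.18 (edgeR adjusted p = 0.00687). E2f3 (ENSMUSG00000016477, chromosome 13, 29906575 to 29986063, minus strand), the activator made in a long and a short form that 3′ counts do not separate, was at 33.7 to 40 CPM in primed cells and 39.8 to 41.7 CPM in 2i. Those ranges overlap, and the log2 fold change was 0.14 ± 0.12, with a 95% interval from −0.11 to 0.38 (edgeR adjusted p = 0.4).

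Among the repressors, E2f4 (ENSMUSG00000014859, chromosome 8, 105297663 to 105305370, plus strand), a main partner of the pocket proteins in resting cells, was at 141, 148 and 152 CPM in primed cells and 105, 97.1 and 115 CPM in 2i. All 2i libraries were below all primed libraries, and the log2 fold change was −0.48 ± 0.10 (edgeR adjusted p = 0.000403). E2f5 (ENSMUSG00000027552, chromosome 3, 14578641 to 14606309, plus strand), its close relative, was at 24.6, 24.2 and 26.8 CPM in primed cells and 31.6, 33.4 and 31.9 CPM in 2i, with no overlap. The rise of 0.36 ± 0.12 (edgeR adjusted p = 0.019) was not called without primed replicate 1 (0.0512), primed replicate 2 (0.0652) or 2i replicate 2 (0.0566). The 3′ end of E2f5 overlaps that of 1810022K09Rik on the opposite strand, and the sources do not say whether counting used strand. That neighbour had a log2 fold change of −0.22 ± 0.09 (edgeR adjusted p = 0.0623). E2f6 (ENSMUSG00000057469, chromosome 12, 16810963 to 16839742, plus strand) was at 21 to 27 CPM in primed cells and 21.1 to 21.5 CPM in 2i, a difference of −0.20 ± 0.14 that did not pass the test (interval −0.48 to 0.09).

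The atypical members fell together. E2f7 (ENSMUSG00000020185, chromosome 10, 110745439 to 110787384, plus strand) was at 34.5, 31.3 and 33.5 CPM in primed cells and at 22.7, 19.4 and 23.1 CPM in 2i, a log2 fold change of −0.61 ± 0.12 (edgeR adjusted p = 0.000369). E2f8 (ENSMUSG00000046179, chromosome 7, 48866429 to 48881596, minus strand) was at 44, 42 and 45.8 CPM in primed cells and 17.4, 17.4 and 18.9 CPM in 2i. For both genes every 2i library was below every primed library. E2f8 fell 2.46-fold, a log2 fold change of −1.30 ± 0.15 (edgeR adjusted p = 3.22e-07). Libraries of the 2 groups did not overlap for 6 of these 10 genes, while 50.4% of all genes tested were without overlap in this comparison.

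The E cyclins parted. Ccne1 (ENSMUSG00000002068, chromosome 7, 38097984 to 38107534, minus strand) was at 264, 247 and 240 CPM in primed cells and 129, 146 and 147 CPM in 2i, with all 2i libraries below all primed ones. It fell 1.78-fold, a log2 fold change of −0.83 ± 0.09 (edgeR adjusted p = 7.67e-08). Ccne2 (ENSMUSG00000028212, chromosome 4, 11191351 to 11204779, plus strand) was at 22.9 to 26.4 CPM in primed cells and 23.7 to 28.7 CPM in 2i. Its difference of 0.07 ± 0.14 did not pass the test, with a 95% interval from −0.22 to 0.35, and it was −0.01 without 2i replicate 1. The 3′ part of Ccne2 lies inside Ints8 on the opposite strand, and Ints8 was not called either (0.14 ± 0.12, edgeR adjusted p = 0.374).

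**Figure D2:**
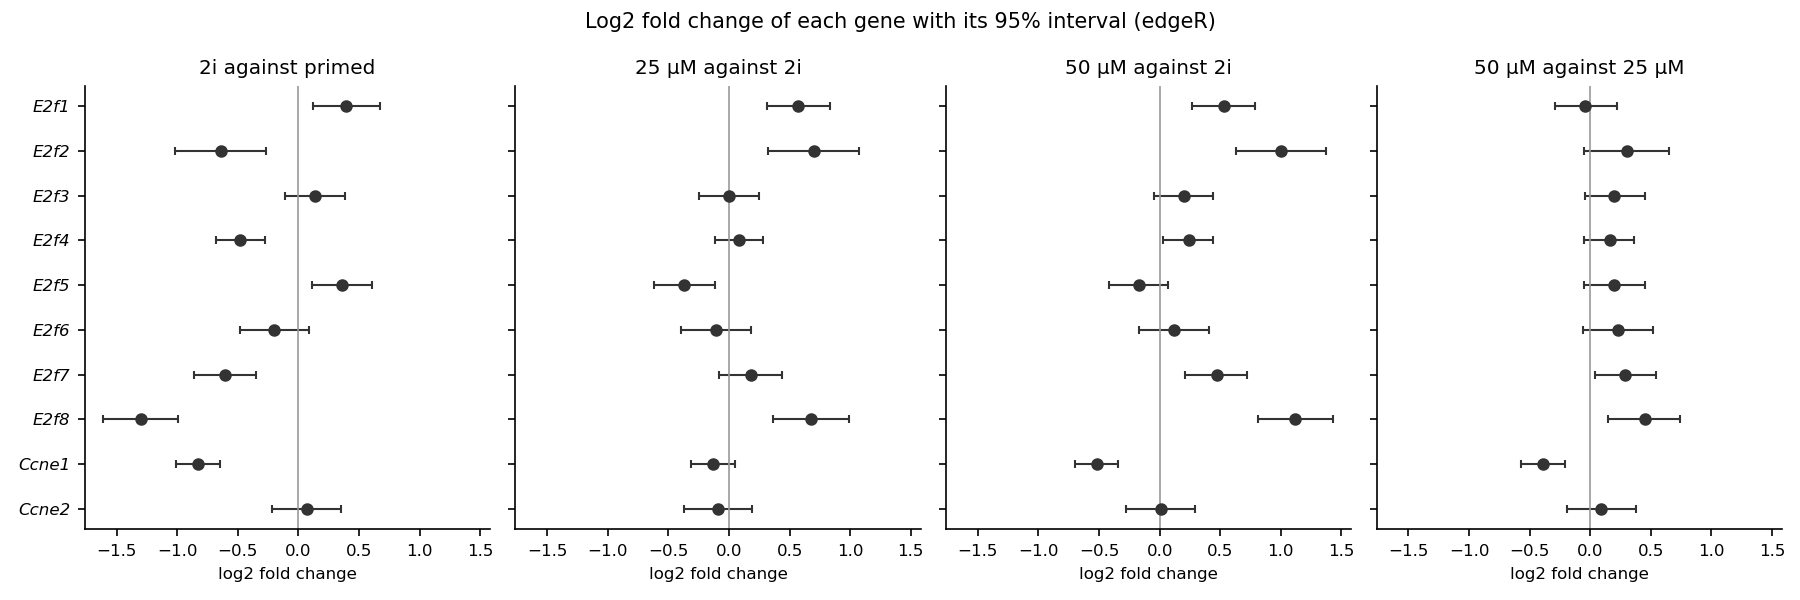
Log2 fold change of each gene (horizontal axis) with its 95% interval in 4 comparisons, 1 panel each. Intervals of E2f2, E2f7 and E2f8 lie below 0 in 2i against primed cells and above 0 for 50 µM against 2i, while those of Ccne1 lie below 0 in both.

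With the inhibitor, compared with 2i alone, E2f1, E2f2 and E2f8 stood higher at both doses, E2f7 stood higher at 50 µM, and Ccne1 stood lower at 50 µM. At 25 µM, 2 of the 10 genes were called, E2f1 and E2f8, both higher, beside 0.937% of all genes called. At 50 µM, 4 were called higher (E2f1, E2f2, E2f7 and E2f8) and 1 lower (Ccne1), beside 15.1% of all genes. With the replicate number as a block, E2f2 was also called higher at 25 µM, beside 4.74% of all genes, and E2f4 at 50 µM, beside 24.5%. The choice of genes used these comparisons, which share the 2i libraries, so nothing is read from the counts.

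E2f1 was at 60.4, 63.6 and 62.1 CPM at 25 µM and at 63.4, 56.8 and 61.2 CPM at 50 µM, above all 3 libraries of 2i alone. The log2 difference from 2i was 0.57 ± 0.12 at 25 µM (1.48-fold) and 0.53 ± 0.12 at 50 µM (1.44-fold). Much of the spread lay in 2i, where replicate 1 was low. Without it the log2 difference was 0.39 at 25 µM and 0.34 at 50 µM, neither of them called. At 25 µM the call was also lost without 2i replicate 3 or any single 25 µM library, and with scaling by library totals only or with the 2 groups fitted alone, at log2 differences from 0.52 to 0.60.

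E2f2 was at 14.7, 13.7 and 13.8 CPM at 25 µM and at 19.4, 20.1 and 12.5 CPM at 50 µM, again above every library of 2i alone. Replicate 3 at 50 µM was lower than the other libraries of its group and lower than every 25 µM library. The log2 differences were 0.70 ± 0.18 and 1.00 ± 0.18, the latter a 2.00-fold difference. E2f3 was at 36.4 to 48 CPM at 25 µM and 42.1 to 50.6 CPM at 50 µM. Its log2 difference from 2i was −0.00 ± 0.12 at 25 µM. At 50 µM, where every library lay just above 2i, it was 0.20 ± 0.12, and neither was called.

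E2f8 was at 34.3, 28.3 and 23.1 CPM at 25 µM and at 46.9, 37.7 and 32.2 CPM at 50 µM. All 6 libraries were above those of 2i alone, although both groups spread widely, with replicate 1 highest and replicate 3 lowest in each. The log2 difference was 0.68 ± 0.15 at 25 µM and 1.12 ± 0.15 at 50 µM (2.18-fold). At 25 µM the call was lost without any of the 3 libraries of 2i, or without replicate 1 or 2 of the dose group, and with limma voom or the 2 groups fitted alone. E2f7 was at 27, 22.8 and 24 CPM at 25 µM, overlapping 2i alone, and at 29.8, 27.6 and 32.9 CPM at 50 µM, above it. The log2 differences were 0.18 ± 0.13 and 0.47 ± 0.12, and the latter was 0.39 without 2i replicate 2 and 0.37 without 50 µM replicate 3, neither of them called.

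No repressor of the E2f4 to E2f6 group was called by edgeR at either dose. E2f4 was at 120, 109 and 105 CPM at 25 µM and 136, 130 and 108 CPM at 50 µM, and both groups overlapped 2i (log2 differences of 0.08 ± 0.10 and 0.24 ± 0.10). E2f5 was at 24.2, 27 and 24 CPM at 25 µM, below every 2i library, with a log2 difference of −0.37 ± 0.12 that was not called. At 50 µM it was at 32.8, 26 and 27.7 CPM, overlapping 2i. E2f6 was at 17.6 to 21.4 CPM at 25 µM and 20.6 to 26.9 CPM at 50 µM, with log2 differences of −0.11 ± 0.14 and 0.12 ± 0.14.

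Ccne1 was at 123, 127 and 134 CPM at 25 µM, overlapping 2i alone, and at 92.2, 103 and 98.4 CPM at 50 µM, below all other libraries. The log2 difference from 2i was −0.13 ± 0.09 at 25 µM and −0.52 ± 0.09 at 50 µM (1.44-fold lower). Ccne2 stayed between 22.1 and 28.5 CPM at 25 µM and between 22.7 and 28.4 CPM at 50 µM, with log2 differences of −0.09 ± 0.14 and 0.01 ± 0.14. The sign of the latter turned with the scaling.

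Between the doses, only Ccne1 was called, lower at 50 µM by a log2 fold change of −0.39 ± 0.09 (edgeR adjusted p = 0.0302, and 0.00126 with the replicate block), beside 1.16% of all genes called (0.975% lower, and 4.1% in either direction with the block). Every 50 µM library was below every 25 µM library. The call was lost without 25 µM replicate 2 (edgeR adjusted p = 0.11) or 3 (0.178), or without 50 µM replicate 1 (0.144), 2 (0.0543) or 3 (0.0751), at log2 fold changes from −0.34 to −0.42. E2f8 was higher at 50 than at 25 µM by 0.45 ± 0.14, which did not pass the test (edgeR adjusted p = 0.154). It passed with the replicate block (0.0232) and without 25 µM replicate 1 (0.0408). E2f7 was above 25 µM in every 50 µM library, with a log2 fold change of 0.29 ± 0.12 (edgeR adjusted p = 0.329). The log2 difference of E2f1 between the doses was −0.04 ± 0.12, with a 95% interval from −0.29 to 0.22. This comparison shares its libraries with the comparisons of each dose with 2i alone.

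Set against primed cells, which also served as the controls of the first comparison, the inhibitor groups fell into different places gene by gene. E2f8 was below primed cells at 25 µM by −0.62 ± 0.14 (edgeR adjusted p = 0.00109), and at 50 µM its difference of −0.18 ± 0.14 did not pass the test (interval −0.46 to 0.11). E2f7 likewise was at −0.43 ± 0.12 at 25 µM (edgeR adjusted p = 0.00646) and at −0.14 ± 0.12 at 50 µM, not called (interval −0.39 to 0.11). For both genes the order of mean levels was 2i alone, 25 µM, 50 µM and primed. In that order 25 and 50 µM were not told apart without the replicate block (with it E2f8 was called, edgeR adjusted p = 0.0232), nor were 50 µM and primed, and for E2f7 neither did 2i and 25 µM.

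E2f1 had its order of mean levels as primed, 2i, 50 µM and 25 µM, with log2 differences from primed of 0.96 ± 0.13 at 25 µM and 0.92 ± 0.13 at 50 µM. E2f2 at 50 µM was higher than in primed cells by 0.35 ± 0.17 (edgeR adjusted p = 0.0944, and 0.011 without 50 µM replicate 3). E2f3, which passed no other test, was higher than in primed cells at 50 µM by 0.33 ± 0.12 (edgeR adjusted p = 0.0266). That call was lost without primed replicate 1 or 2 or 50 µM replicate 1 or 2, at edgeR adjusted p from 0.056 to 0.121, and with DESeq2 (adjusted p = 0.0572). E2f4 was below primed cells by −0.40 ± 0.10 at 25 µM (edgeR adjusted p = 0.0021) and by −0.24 ± 0.10 at 50 µM (0.0477), the latter a call lost without any single library but 50 µM replicate 1. Ccne1 was lower than in primed cells by −0.96 ± 0.09 at 25 µM and −1.35 ± 0.09 at 50 µM, a 2.55-fold fall (edgeR adjusted p = 5.51e-11). Its order was 50 µM, 25 µM, 2i and primed, in which only 25 µM and 2i were not told apart. Against primed cells, 1 of the 10 genes was called higher and 4 lower at 25 µM, beside 42.3% of all genes called. At 50 µM 2 were higher and 2 lower, beside 44.3%.

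A ratio within a library does not depend on scaling. Ccne1 made up 90.9%, 90.9% and 91.3% of E cyclin counts (Ccne1 and Ccne2 together) in primed cells and 81.7%, 85.5% and 86.1% in 2i. It made up 81.2%, 85.2% and 85.8% at 25 µM and 76.5%, 79.5% and 81.3% at 50 µM. Exact (Clopper-Pearson) 95% intervals of single libraries, which cover counting error only, reached from 89.4% to 92.6% in primed cells and from 79.2% to 88.2% in 2i. The 2i share was lower than the primed share by 6.61 percentage points, and every 2i library was below every primed library. The two-sided exact permutation p was 0.1, the smallest that 3 against 3 libraries allow. In each six-day group replicate 1 had the lowest share.

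**Figure D3:**
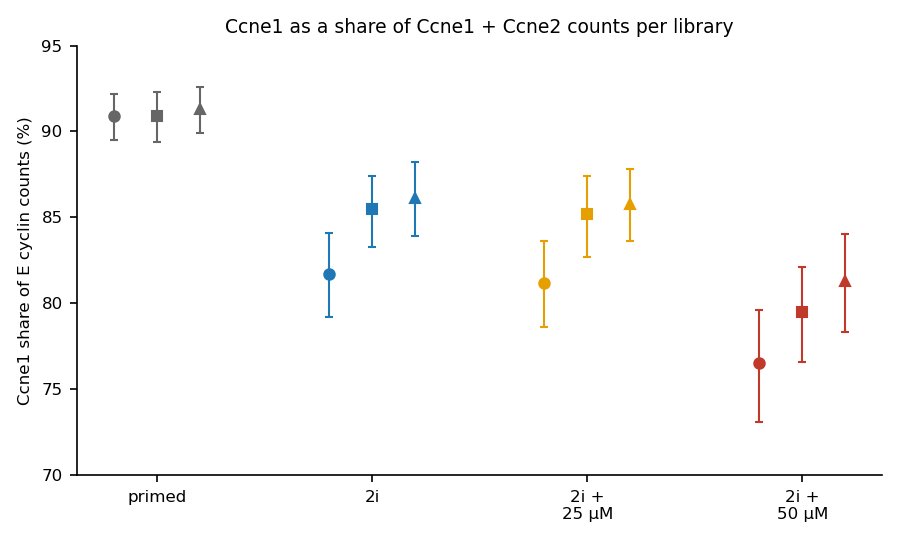
Ccne1 as a percentage of Ccne1 and Ccne2 counts (vertical axis, shown from 70 to 95%) in each library, by group, with exact 95% intervals of counting error as bars. Shares lie between 90.9% and 91.3% in primed cells and between 76.5% and 81.3% at 50 µM.

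The partners and upstream regulators of E2F showed few changes with the inhibitor. Of the 5 pocket protein and DP genes, Rbl1, which encodes p107, rose in 2i (0.58 ± 0.18, edgeR adjusted p = 0.0157), and the other 4 were not called by edgeR in that comparison, while DESeq2 called 1 of them lower. The call of Rbl1 was lost without 2i replicate 1 (0.0579) or primed replicate 1 (0.0684). Tfdp2, a DP partner, fell at 50 µM against 2i (−0.31 ± 0.10, edgeR adjusted p = 0.0304), a call lost without 2i replicate 2 or 3 or 50 µM replicate 1 or 2 (0.082 to 0.122). Of 19 measured kinases, cyclins and inhibitors of the G1 to S step, 7 rose and 4 fell in 2i against primed cells (36.8% and 21.1%, beside 20% and 20.4% of all genes). They include the CDK inhibitors Cdkn1a (2.00 ± 0.13), Cdkn1b (0.43 ± 0.09) and Cdkn1c (−2.65 ± 0.29). At 25 µM none of the 19 was called by edgeR, DESeq2 or limma voom, close to the 0.937% of all genes called by edgeR. Of the 19, 5 had an unadjusted edgeR p below 0.05. At 50 µM 1 rose (5.26%, beside 7.01% of all genes), Cdkn1b, the CDK2 inhibitor p27 (0.30 ± 0.09, edgeR adjusted p = 0.0218). That call was lost without 2i replicate 1 or 3 or 50 µM replicate 1 (0.0677 to 0.152) and with scaling by library totals only (0.0671). Of 12 genes that act in the breakdown of cyclin E and E2F1 or oppose it, 2 rose and 4 fell in 2i (16.7% and 33.3%, beside the same 20% and 20.4%). The list mixes both roles, so these counts have no single direction for breakdown. Fbxw7, the ubiquitin ligase subunit that recognises cyclin E, rose (0.50 ± 0.09, edgeR adjusted p = 9.13e-05), and Usp28, a deubiquitinase that opposes it, fell (−1.08 ± 0.13, edgeR adjusted p = 5.2e-07). Skp1a (−0.46 ± 0.08), Skp2 (−0.39 ± 0.14) and Cks1b (−0.27 ± 0.09), which also act in breakdown, fell too, and Ccnf rose (0.27 ± 0.10). In that list 1 gene was called at 50 µM against 2i, Rbx1 (0.46 ± 0.09), which is 8.33% beside 7.01% called higher. Of 8 substrates and partners of cyclin E-CDK2, 1 rose at 25 µM, Cdt1 (12.5%, beside 0.454%), and 3 rose at 50 µM (37.5%, beside 7.01%), Cdt1, its inhibitor Gmnn (0.39 ± 0.11) and the helicase subunit Mcm2 (0.30 ± 0.08). The calls of Gmnn and Mcm2 were each lost without 2i replicate 1 or 50 µM replicate 1, among others (adjusted p up to 0.114). Cdt1, Mcm2, Cdc6, Casp8ap2 and Slbp of this list are also among the G1 to S targets described next. The counts of these lists are therefore not separate results.

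Among genes that E2F is known to switch on at the G1 to S step, more rose than fell. The list of these genes was chosen with earlier results of these data known. Its comparisons of each dose with 2i are also those used in choosing the 10 genes. The counts at the doses are therefore not independent evidence beside the rise of E2f1. Of 42 such genes, none of them among the 10, 12 rose and 1 fell in 2i against primed cells (28.6% higher, beside 20% of all genes), with a median log2 fold change of 0.18. Among them were the chromatin assembly subunit Chaf1b (0.46 ± 0.09) and the nucleoside kinase Dck (0.62 ± 0.13), and the fall was that of the licensing factor Cdt1 (−0.33 ± 0.08). At 25 µM against 2i, 4 rose and none fell by edgeR, DESeq2 or limma voom (13 rises and 0 falls at an unadjusted edgeR p below 0.05). The share of rises was 9.52%, beside 0.454% of all genes called higher, with a median of 0.16. Without 2i replicate 3 there was 1 rise, and with the replicate block there were 10. At 50 µM, 11 rose and none fell by edgeR (26.2%, beside 7.01%), with a median of 0.22. DESeq2 gave 9 rises and limma voom 11, neither with a fall, and 22 rises and 2 falls had an unadjusted edgeR p below 0.05. The count at 50 µM was 24 rises and 2 falls with the replicate block, and 7 rises and 2 falls with scaling by library totals only. It was 6 rises without 50 µM replicate 1, and 8 rises and 1 fall without 50 µM replicate 3. Against primed cells 25 rose at 25 µM and 30 at 50 µM, beside 21.3% and 22.6% of all genes.

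Mybl2, which encodes the cell cycle factor B-MYB, was at 102, 93.7 and 104 CPM in 2i, at 145, 149 and 154 CPM at 25 µM and at 181, 164 and 174 CPM at 50 µM, with no overlap between the 3 groups. It rose by 0.58 ± 0.08 at 25 µM (edgeR adjusted p = 0.00149) and by 0.79 ± 0.08 at 50 µM (2.55e-06). Cdt1, which loads the MCM helicase, was at 224, 232 and 207 CPM in 2i, 335, 305 and 299 CPM at 25 µM and 383, 348 and 356 CPM at 50 µM. It rose by 0.50 ± 0.08 and 0.71 ± 0.08. Uhrf1, a partner of the maintenance DNA methyltransferase, was at 135, 141 and 128 CPM in 2i, 202, 200 and 176 CPM at 25 µM and 225, 207 and 183 CPM at 50 µM. It rose by 0.52 ± 0.09 and 0.61 ± 0.09. At 25 µM the calls of Cdt1 and Uhrf1 were lost without 2i replicate 3 (edgeR adjusted p = 0.0584 for each). Mybl2, Cdt1 and Uhrf1 were named because their p was the smallest on the list at both doses, so they do not stand for the list. Of the genes with a promoter window, 25 of 35 on this list held the shorter E2F letters and 17 held the longer ones, beside 10.9% and 2.6% of all genes.

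Of 24 genes of G2 and mitosis, none rose by edgeR and 3 fell in 2i against primed cells (12.5%, beside 20.4% of all genes called lower), the kinases Plk1 (−0.24 ± 0.09), Bub1 (−0.27 ± 0.10) and Bub1b (−0.27 ± 0.10), with a list median of −0.07. DESeq2 and limma voom each gave 0 rises and 4 falls, and 1 gene was higher and 6 lower at an unadjusted edgeR p below 0.05. Each of these calls was lost without 2i replicate 1 or 3 or primed replicate 2, and with scaling by library totals only (adjusted p from 0.0611 to 0.196). No gene of that list was called at either dose against 2i by edgeR, DESeq2 or limma voom, with medians of 0.05 at both. Of all genes, edgeR called 0.937% at 25 µM and 15.1% at 50 µM, so 0 of 24 at 25 µM is close to that share. At an unadjusted edgeR p below 0.05 there was 1 rise at 25 µM, and 4 rises and 1 fall at 50 µM. With the replicate block 1 rose at 25 µM, and 3 rose and 1 fell at 50 µM. Of 8 apoptosis genes counted among E2F1 targets, 1 rose and 3 fell in 2i (12.5% and 37.5%, beside 20% and 20.4% of all genes). The apoptosome gene Apaf1 rose (0.78 ± 0.13), while Bcl2l11 (−2.07 ± 0.15), Hrk (−3.34 ± 0.59) and Bbc3 (−0.54 ± 0.11), all BH3-only killers, fell. Hrk was near the floor, with means of 3.3 CPM in primed cells and 0.303 CPM in 2i. None of the 8 was called at either dose against 2i by edgeR, beside 0.937% of all genes at 25 µM and 15.1% at 50 µM. At 50 µM 1 fell by DESeq2 and 1 by limma voom, and 2 were lower at an unadjusted edgeR p below 0.05, against 0 at 25 µM.

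**Figure D4:**
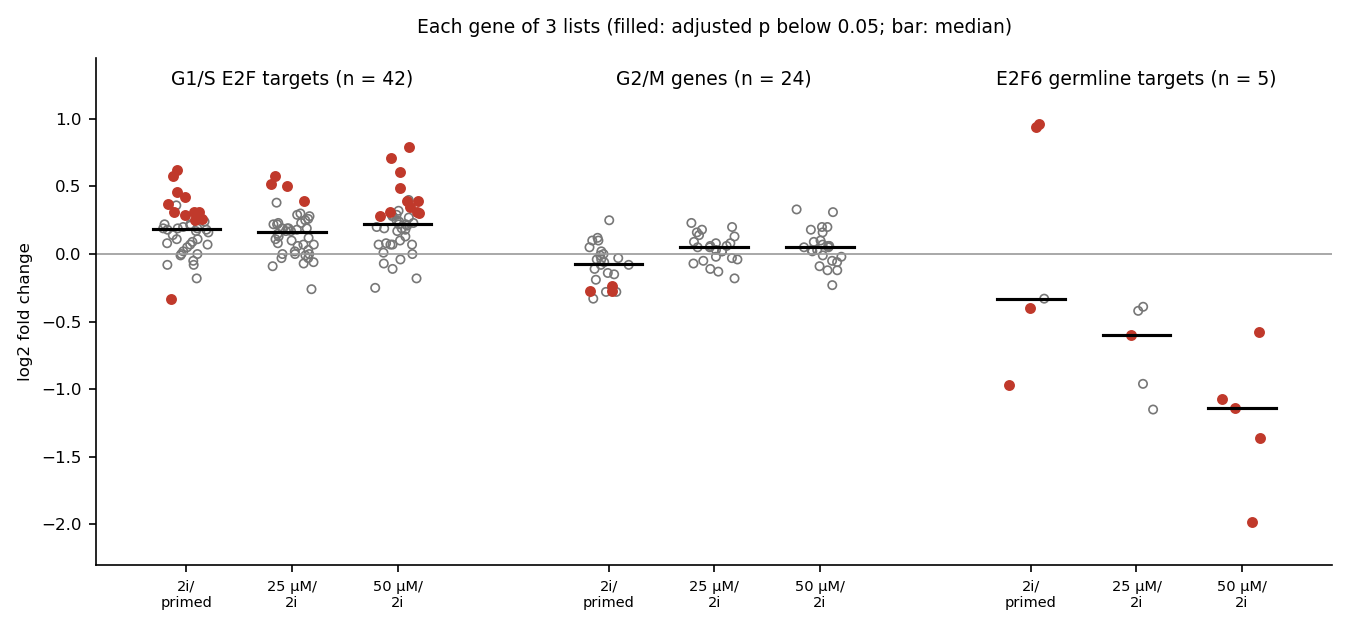
Log2 fold change (vertical axis) of each gene of 3 lists in 3 comparisons (horizontal axis), with genes called at an adjusted p below 0.05 filled and the list median as a bar. Medians of the G1/S targets are 0.18, 0.16 and 0.22, those of the G2/M genes −0.07, 0.05 and 0.05, and those of the 5 germline genes −0.33, −0.60 and −1.14.

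E2F6 is known to silence a small set of germline genes in somatic and embryonic stem cells, and 5 of these were followed although E2f6 itself was called in no comparison. They were taken knowing that germline genes were lower with the inhibitor in these libraries. Neither their direction nor their count of calls at the doses is therefore independent evidence, and no p-value is given there. All 5 fell at 50 µM against 2i, where 8.07% of all genes were called lower, with a median of −1.14. Smc1b, a subunit of meiotic cohesin, was at 51.3, 44.9 and 49.2 CPM in 2i, 29.8, 32.5 and 33.5 CPM at 25 µM and 19, 20.7 and 16.7 CPM at 50 µM. It fell by 0.60 ± 0.11 at 25 µM and by 1.36 ± 0.11 at 50 µM. Stag3, another meiotic cohesin subunit, fell by 0.58 ± 0.12 at 50 µM, and Tuba3b, a testis alpha-tubulin, fell by 1.98 ± 0.36. Tuba3a and Tuba3b are near-identical copies, so their single values are uncertain. At 25 µM, where 0.484% of all genes were called lower, Smc1b was the only one of the 5 called (4 with the replicate block), and at 50 µM 3 were called without 2i replicate 2. In 2i against primed cells Smc1b (−0.97 ± 0.10) and Stag3 (−0.40 ± 0.12) fell, while Tuba3a (0.96 ± 0.28) and Tuba3b rose, the last pair not called without primed replicate 1 or 3.

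Over the same samples E2f6 had mean levels of 24.4 ± 3.06 CPM when primed, 21.2 ± 0.199 with 2i, 19.7 ± 1.96 with 25 µM and 23.1 ± 3.33 with 50 µM (SD, n = 3). Of the 12 genes of its Polycomb complex, 2 rose in 2i against primed cells (16.7%, beside 20%), Wdr5 (0.91 ± 0.09) and the ubiquitin ligase Rnf2 (0.37 ± 0.10). At 25 µM against 2i, 0 were called by edgeR, DESeq2 or limma voom, close to the 0.937% of all genes called by edgeR. At an unadjusted edgeR p below 0.05 there were 0 too. At 50 µM 1 rose and 1 fell (8.33% each), close to the 7.01% and 8.07% of all genes called higher and lower. Ring1 rose (0.96 ± 0.23), from a mean of 4.37 CPM in 2i to 8.53 CPM. Yaf2 fell (−0.68 ± 0.20), but not without 2i replicate 2 or 3 or 50 µM replicate 1 or 3 (edgeR adjusted p from 0.0536 to 0.108).

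**Figure D5:**
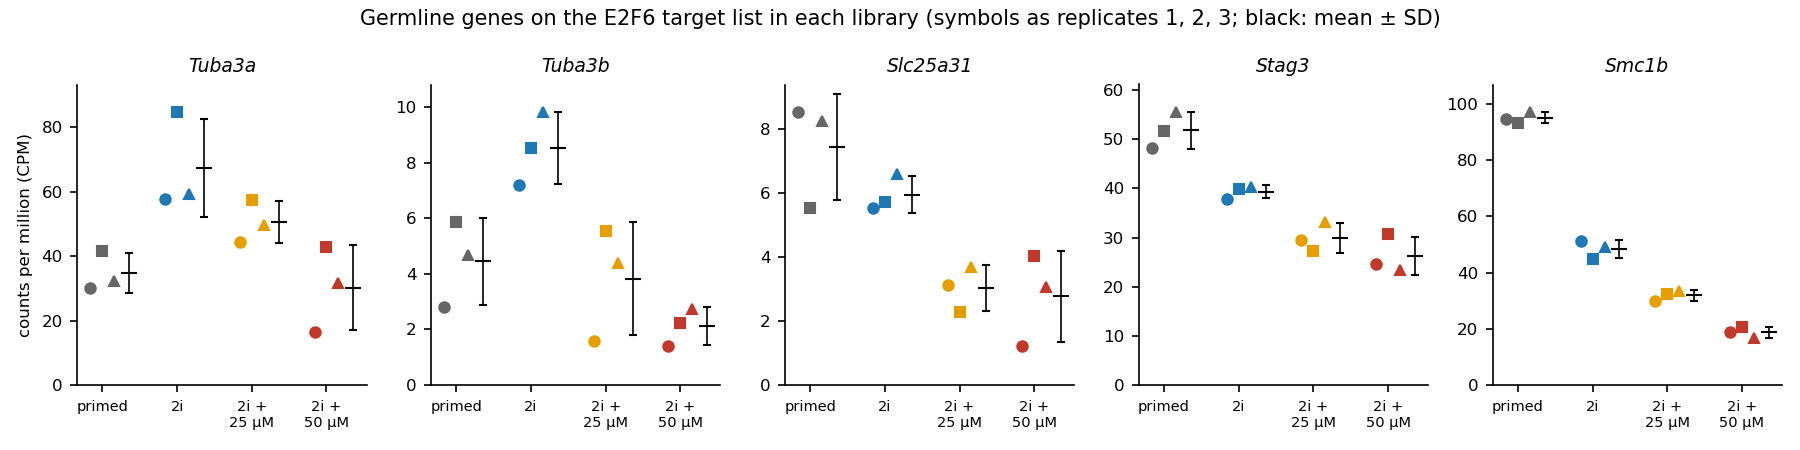
Level in CPM (counts per 1000000, vertical axis from 0) of 5 germline genes that E2F6 is known to silence, in the 12 libraries by group, with the mean and SD (n = 3) in black. Smc1b steps from 44.9 to 51.3 CPM in 2i to 16.7 to 20.7 CPM at 50 µM.

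The genes with profiles most like that of E2f1 were sought among 8781 genes of sufficient level, as those with the smallest root mean square difference in centred log2 CPM over the 12 libraries. They were Vps35l (0.128), the mitotic kinesin gene Kif18b (0.150), H6pd (0.154), Ddias (0.164) and Uhrf1 (0.169). Uhrf1 went from a mean of 108 CPM in primed cells to 134 CPM in 2i, 193 CPM at 25 µM and 205 CPM at 50 µM. Genes near to Ccne1 by the same measure included Dgka (0.126), Zdbf2 (0.132), the Polycomb corepressor gene Bcor (0.133) and Ube2a (0.144). Bcor went from 43.9 CPM in primed cells through 28.2 and 23.8 CPM to 17.7 CPM at 50 µM.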

How the data were processed

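All values start from unnormalised gene counts deposited by the authors in 1 table per library. QuantSeq 3′ libraries were primed with oligo-dT, per the labels' protocols, so reads come from transcript 3′ ends and counts carry no length adjustment. The submitters' processing notes list FastQC, STAR, DESeq2 1.32.0 and GRCm38, and neither the counting tool nor its strand setting is stated in the sources. The 114 spike-in features (2 counts) were left out, 0 columns were unmapped, and symbols were found for 52073 IDs. Positions are from GENCODE on GRCm38.

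All 12 libraries entered 1 fit in R 4.3.3 with edgeR 4.0.16 (TMM, filterByExpr, robust quasi-likelihood F test), checked on simulated counts. SE is the log2 fold change divided by the square root of F. DESeq2 1.42.0 and limma 3.58.1 were alternatives. Chi-square values per degree of freedom were 8.818 to 11.707 between replicate 1 and the other libraries of its group. Between replicates 2 and 3 they were 2.483 to 6.642, and no library was counted as a duplicate. The main fit had no term for replicate number, and the replicate block, which adds one, was an alternative. In the six-day groups deviations of same-numbered libraries correlated at 0.155 to 0.314 (25 µM and 2i), 0.115 to 0.249 (50 µM and 2i) and 0.134 to 0.286 (both doses). Different-numbered libraries correlated at −0.195 to 0.051, −0.156 to 0.039 and −0.204 to 0.069 in the same order. Every same-numbered value was thus the higher, a shared pattern by replicate number that the main fit leaves out. Named genes were the 10 genes, up to 3 called genes of each list with the smallest p, the 5 nearest profiles and overlapping neighbours (log2 CPM with a prior count of 2, mean of at least 3). The genes and lists were chosen with earlier results of these data known, and list membership was described by counts and medians, with no set test. Lin54 is not analysed here. Some genes taken by the naming rule are not reported here.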

Additional observations from a re-analysis of the deposited data

Results flagged for a closer look

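The effect of the inhibitor on Ccne1 differed between the doses by a test of the difference itself: the log2 fold change of 50 against 25 µM was −0.39 ± 0.09 (edgeR adjusted p = 0.0302), and all 3 libraries at 50 µM were below all 3 at 25 µM. The call was lost on leaving out any single library but 25 µM replicate 1, with edgeR adjusted p from 0.0543 to 0.178. Groups of 3 libraries are too small for a test of single outlying samples.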

How the results depend on the processing

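Of the 60 values of the 10 genes in 2i against primed cells with 1 library left out, 53 kept direction and side of the threshold, 6 were no longer called (E2f1 and E2f5) and 1 turned (Ccne2, −0.01); all 70 under the other settings kept both. With no low-count filter 268 genes were called at 25 µM against 2i and 329 between the doses. With the replicate block, 627 were called at 25 µM and 3240 at 50 µM against 2i, and 542 between the doses. With 1 library left out, the counts ran from 29 to 101 at 25 µM and 1217 to 1668 at 50 µM against 2i, 38 to 203 between the doses, 4615 to 4991 in 2i against primed cells, 4926 to 5297 at 25 µM and 5117 to 5486 at 50 µM against primed cells. The 2i share of Ccne1 in E cyclin counts was different from the primed share by −7.45 to −5.25 percentage points with 1 library left out, and the exact p paired by number (replicate block) was 0.25, the smallest possible.

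With library totals in place of TMM, 31.9% in place of 48.4% of calls at 25 µM and 30.2% in place of 46.5% at 50 µM against 2i were upward. Numbers were not taken as pairs in the main fit. In comparisons with primed cells same-numbered deviations correlated at 0.091 to 0.244 (2i), 0.012 to 0.163 (25 µM) and 0.051 to 0.175 (50 µM). Different-numbered deviations correlated at −0.168 to 0.064, −0.159 to 0.113 and −0.143 to 0.058 in the same order. There the replicate block raised the rises among G1/S targets in 2i from 12 to 21 and gave 1 rise and 7 falls among G2/M genes. It changed no call of the 10 genes in these comparisons. Values near 0 that were not called turned sign. With 1 library left out, Ccne2 in 2i against primed cells ran from −0.01 to 0.12, and E2f3 at 25 µM against 2i from −0.14 to 0.06. At 50 µM against 2i, E2f6 ran from −0.03 to 0.17 and Ccne2 from −0.09 to 0.07, and Ccne2 was −0.01 with DESeq2, −0.02 with upper-quartile scaling, −0.06 with library totals and −0.01 with no filter. E2f1 between the doses ran from −0.08 to 0.02. At 25 µM against primed cells E2f3 ran from −0.00 to 0.20, E2f5 from −0.06 to 0.03 (0.00 with no filter) and Ccne2 from −0.15 to 0.04, and at 50 µM E2f6 from −0.22 to 0.01 and Ccne2 from −0.01 to 0.14. The call of E2f4 at 50 µM against primed cells (edgeR adjusted p = 0.0477) ranged up to 0.192 with 1 library left out and was 0.0703 with no filter. Causes were not tested. The nearest 5 genes to E2f1 and to Ccne1 were the same with a prior count of 0.5.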

Other observations

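E2f1 and E2f8, an activator and a repressor of the same targets, can be set against each other within a library, free of scaling. The ratio of E2f1 to E2f8 counts was 0.64 to 0.80 in primed cells, 1.86 to 2.84 in 2i alone, 1.76 to 2.68 at 25 µM and 1.35 to 1.90 at 50 µM. All libraries of the six-day groups were above all primed libraries, and the 3 six-day groups overlapped in part. E2f1 was among the values that chose these genes, so no test is given.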
